A study of Homo sapiens with 12 samples.

Results

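The 10 genes described here are the BCL2 family members BCL2, BCL2L1, MCL1, BAX, BAK1, BCL2L11, BBC3, PMAIP1 and BID and the inhibitor of apoptosis BIRC3. They were chosen by gene symbol, and all 10 were found among 46350 named genes in the count tables. The data are RNA sequencing counts of 12 libraries, with 3 replicates in each of 4 groups: SKOV3 untreated, SKOV3 with paeonol (PAE), SKOV3/DDP untreated and SKOV3/DDP with PAE. SKOV3 is an epithelial ovarian cancer line that the labels call cisplatin-sensitive, SKOV3/DDP is its counterpart labelled cisplatin-resistant, and PAE is a small phenolic compound. The labels give neither the dose nor the time of PAE. The headers of the PAE count tables carry a different number in each line, with no unit or meaning stated, so that unequal treatment of the lines and a difference between the lines cannot be told apart. Each line was a single cell population, so that differences between lines are those of these 2 populations. The design text calls the replicates biological and experimental triplicates without naming separate cultures, and the p-values below measure the spread between these libraries, part of which may be technical.

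BCL2 family proteins decide whether the outer membrane of the mitochondrion stays sealed. The anti-apoptotic members (BCL2, BCL-xL from BCL2L1, and MCL1) bind and hold back the effectors BAX and BAK1, which otherwise form pores that release cytochrome c and lead to caspase activation. BH3-only proteins (BIM from BCL2L11, PUMA from BBC3, NOXA from PMAIP1, and BID) neutralise the anti-apoptotic members or activate the effectors, while BIRC3 (cIAP2) is a ubiquitin ligase of TNF receptor and NF-kB signalling. Cisplatin kills largely by this mitochondrial route, and high BCL-xL or MCL1 is a known way for carcinoma cells to resist it.

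Totals lay between 14610008 and 18263479 counts per library. The 3 untreated SKOV3 libraries stood apart from the other 9: they had counts for 17951 to 18240 genes, against 21469 to 23194, and their levels leaned towards GC-rich genes. The deviation of a gene from its mean over libraries correlated with GC content with a Spearman rho of 0.652 to 0.658 in these libraries and of −0.527 to −0.325 in the others, as a description over 15090 genes of the same libraries. The mean includes the 3 untreated SKOV3 libraries, which by itself lowers the values of the others. The trend is thus one of untreated SKOV3 relative to the other libraries. Every comparison with untreated SKOV3 is therefore given below with a second value, from a fit in which each library had first been freed of a curve fitted on the GC content and length of genes. The cause of the trend was not tested. The check of the labels by marker genes also separated the lines. Intestinal epithelium markers summed to 532 to 576 CPM (counts scaled to library size, TMM-normalized) in SKOV3/DDP and 163 to 249 CPM with PAE, against 0.158 to 0.887 CPM over the 6 SKOV3 libraries, where all defining markers were at or near 0. Of 9 ovarian carcinoma markers, 6 to 8 had a group mean over 1 CPM, and WT1 was at 0 in untreated SKOV3. Of the 8 tested, 4 were higher and 4 lower in SKOV3/DDP than in SKOV3 with PAE, with a median log2 difference of −0.12, and KRT7 was 2927-fold lower. The part of these differences in the results between lines was not tested. Fibroblast markers summed to 0.550 to 31.1 CPM, and of the leukocyte markers 1, CD14, had a group mean over 1 CPM.

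The promoters of 3 members are shown, because regulators known to act on them were also measured: NF-kB genes for BIRC3, FOXO genes for BCL2L11 and stress-response factors for PMAIP1. The windows are from RefSeq (GRCh38.p14), run from 250 bases before to 50 bases after the transcription start, and are printed 5′ to 3′ on the gene's strand. Of the 10 members, 9 had a window, and MCL1 was not analysed here. Capitals mark motif matches on either strand.
BIRC3: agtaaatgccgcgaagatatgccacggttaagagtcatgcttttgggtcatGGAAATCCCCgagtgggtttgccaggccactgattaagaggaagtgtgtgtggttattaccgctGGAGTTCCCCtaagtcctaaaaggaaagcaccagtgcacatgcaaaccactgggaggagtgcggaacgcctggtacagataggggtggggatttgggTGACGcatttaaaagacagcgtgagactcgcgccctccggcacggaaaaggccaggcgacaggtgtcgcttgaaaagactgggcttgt
BCL2L11: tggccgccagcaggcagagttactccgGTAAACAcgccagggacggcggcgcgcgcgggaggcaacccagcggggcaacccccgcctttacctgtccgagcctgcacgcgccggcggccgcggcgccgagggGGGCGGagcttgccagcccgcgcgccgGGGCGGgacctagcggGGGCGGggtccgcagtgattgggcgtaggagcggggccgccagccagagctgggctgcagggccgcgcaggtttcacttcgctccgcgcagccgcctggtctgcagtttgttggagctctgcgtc
PMAIP1: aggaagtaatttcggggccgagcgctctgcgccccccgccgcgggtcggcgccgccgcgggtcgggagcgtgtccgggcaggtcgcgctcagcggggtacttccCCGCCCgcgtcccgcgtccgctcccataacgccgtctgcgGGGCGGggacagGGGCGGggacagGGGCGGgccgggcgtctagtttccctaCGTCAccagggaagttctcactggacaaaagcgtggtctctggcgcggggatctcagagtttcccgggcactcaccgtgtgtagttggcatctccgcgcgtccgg
The BIRC3 window (chr11:102317234-102317533, plus strand) held 2 matches to the NF-kB consensus, beginning at −199 and −135, where −1 is the base before the start, and 1 core of the CRE motif (TGACG) at −38. The consensus form was set after a first form had been seen to have no match in this window, so the matches carry no support. Of 35116 promoter windows, 11.3% held the NF-kB consensus, 25.6% the first form and 24.6% the CRE core. The BCL2L11 window (chr2:111120664-111120963, plus strand) held a FOXO motif (TGTTTAC, on the opposite strand) at −223, a motif found in 3.42% of windows. It also held 3 SP1 motifs (GGGCGG). The PMAIP1 window (chr18:59899746-59900045, plus strand) held 1 CRE core on the opposite strand at −55 and 4 SP1 motifs, the latter found in 45% of windows. A match describes letters in these windows and is not a measured site.

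Levels per kilobase of gene length were used to set the members side by side. In untreated SKOV3/DDP, MCL1 was the most abundant member at 152 ± 52.9 CPM per kb (SD, n = 3), followed by BCL2L1 at 70.1 ± 5.56, BAX at 54.1 ± 2.31 and BAK1 at 28.2 ± 3.70 CPM per kb. Next came PMAIP1 at 13.0 ± 10.5, BID at 11.6 ± 0.873 and BBC3 at 11.1 ± 4.03 CPM per kb, whose libraries overlapped. BCL2L11 (2.15 ± 0.0755 CPM per kb), BIRC3 (0.684 ± 0.243 CPM per kb) and BCL2 (0.0750 ± 0.0297 CPM per kb) were the lowest. With PAE, MCL1 stayed first at 161 ± 15.0 CPM per kb, whereas BCL2L1, at 19.9 ± 2.27 CPM per kb, came sixth, and the levels from BAX (second) to BCL2L1 formed a chain in which neighbours overlapped. In untreated SKOV3 the order began with BAX (267 ± 61.5 CPM per kb), BCL2L1 (133 ± 4.28) and BAK1 (106 ± 14.3), and MCL1 was sixth at 16.2 ± 2.93 CPM per kb. BCL2, the founding anti-apoptotic gene, was last in every group, with 3 to 27 counts per library, and its level could be measured only coarsely at this depth.

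**Figure D1:**
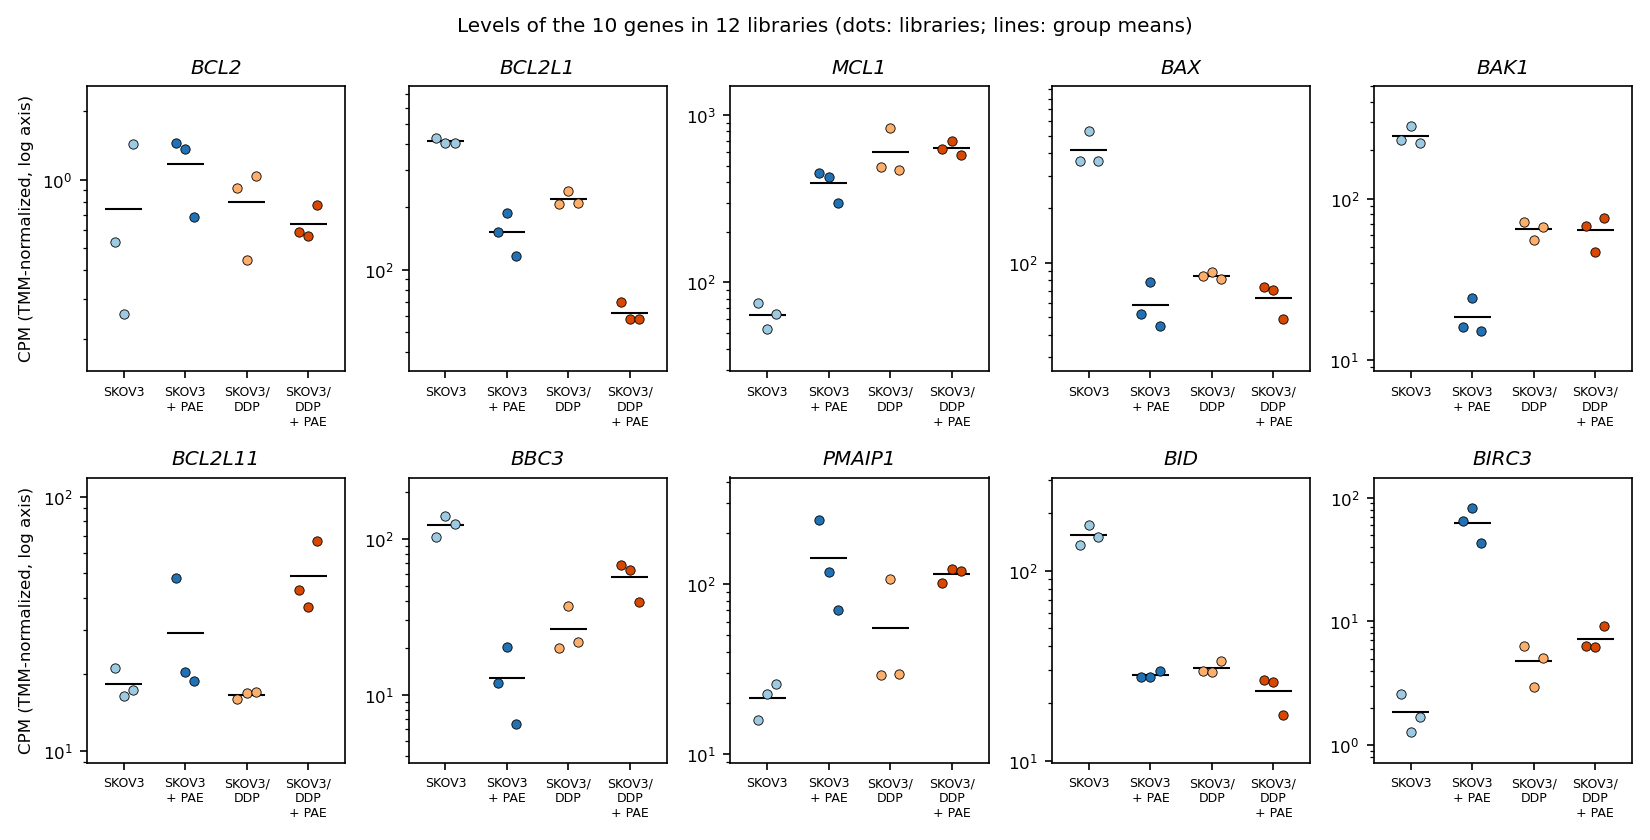
Levels of the 10 genes in each of the 12 libraries, in TMM-normalized CPM on a log axis that differs between panels. Dots are libraries and lines are group means (n = 3). BAX, BAK1, BBC3 and BID were highest in the 3 untreated SKOV3 libraries, and BIRC3 was highest in the 3 SKOV3 libraries with PAE.

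The first comparison asked what PAE changed in the resistant line. Its contrast leaves out the untreated SKOV3 libraries, which enter only through the filter, normalization and variance estimate of the shared fit. BCL2L1 fell, and the BH3-only genes BCL2L11 and BBC3 rose, while MCL1, BAX, BAK1, BID, PMAIP1, BIRC3 and BCL2 did not pass the test. Thus 3 of 10 members were called, 2 higher and 1 lower, by the edgeR quasi-likelihood test (a call is a Benjamini-Hochberg adjusted p below 0.05), beside 26.5% of the 17133 genes tested (11.8% higher and 14.7% lower). Under scaling by library size alone, 59.9% of called genes were higher instead of 44.6%, with the median of all genes at 0.16 instead of 0.00, and the same 3 members were called in the same directions. The median log2 fold change of the 10 members was 0.03. With the GC trend removed the calls were again 2 higher and 1 lower, beside 32.7% of genes (15.7% higher and 17.0% lower). Under the study's own criteria, an unadjusted p under 0.05 with an absolute log2 fold change over 2, edgeR called 0 members and 7.01% of genes. Other measures moved with PAE in this line. The mitochondrial share of counts was 8.66% to 11.2% without and 3.93% to 8.67% with PAE, and the summed ovarian carcinoma markers were 9327 to 11655 CPM without and 2244 to 3336 CPM with PAE. Their part in the results was not tested.

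BCL2L1 had 207, 238 and 210 CPM in the 3 untreated SKOV3/DDP libraries and 70.0, 57.8 and 57.8 CPM with PAE. Every PAE library was below every untreated one. The decrease was 3.53-fold (log2 fold change −1.82 ± 0.21, SE; edgeR adjusted p = 4.21e-05), and −1.64 ± 0.15 with the GC trend removed. A transcript antisense to BCL2L1, ABALON, overlaps it with 25 to 391 counts per library, and strand of counting was not given in the sources used here. In bulk RNA, fewer cells with a transcript and less transcript per cell cannot be told apart.

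MCL1, the short-lived anti-apoptotic protein, had 490, 842 and 471 CPM without PAE and 626, 697 and 580 CPM with it. The libraries overlapped, and replicate 2 of untreated SKOV3/DDP was the highest of all 12. Its log2 fold change was 0.08 ± 0.25, with a 95% interval of −0.45 to 0.60. BCL2 had 0.923, 0.442 and 1.04 CPM without and 0.589, 0.564 and 0.770 CPM with PAE, and its 95% interval ran from −1.59 to 0.94.

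Of the effectors, BAX had 83.9, 88.3 and 81.1 CPM without PAE and 73.5, 70.3 and 48.6 CPM with PAE. All PAE libraries were lower, but the log2 fold change of −0.40 ± 0.24 did not pass the test (edgeR adjusted p = 0.249). BAK1 had 72.2, 55.5 and 66.9 CPM without and 67.8, 46.7 and 76.3 CPM with PAE, with overlapping libraries and an interval of −0.53 to 0.48.

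Among the BH3-only genes, BCL2L11 was tightly grouped without PAE, at 15.9, 16.8 and 17.0 CPM, and had 42.8, 36.9 and 67.1 CPM with PAE. All 3 PAE libraries lay above the untreated ones, and the rise was 2.95-fold (log2 fold change 1.56 ± 0.33; edgeR adjusted p = 0.00298). BBC3 had 19.9, 37.3 and 21.7 CPM without PAE and 68.7, 63.5 and 39.4 CPM with it. These libraries did not overlap either, although replicate 2 without PAE came close to replicate 3 with PAE. BBC3 rose 2.18-fold (log2 fold change 1.12 ± 0.35; edgeR adjusted p = 0.0288), and 1.39 ± 0.25 on the log2 scale with the GC trend removed. The BBC3 call was lost when any of 4 libraries was left out: replicate 1 or 3 without PAE (0.99 and 1.03) and replicate 1 or 2 with PAE (1.01 and 1.08).

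PMAIP1, whose protein NOXA binds mainly MCL1, had 29.2, 107 and 29.8 CPM without PAE and 102, 123 and 119 CPM with PAE. Replicate 2 without PAE was as high as the PAE libraries, while the other two were well below them. The log2 fold change of 1.05 ± 0.52 did not pass the test (edgeR adjusted p = 0.160), but without replicate 2 of untreated SKOV3/DDP it was 1.96, with an edgeR adjusted p of 0.00253, and with no filter on low counts it was 1.08, with an edgeR adjusted p of 6.01e-04. DDIT3, a stress-response transcription factor known to act upstream of BH3-only genes, had 586 CPM in that library against 24.6 and 58.0 CPM in the other two and 138.5 to 268 CPM with PAE. The part of this library's state in the PMAIP1 result was not tested. BID had 29.6, 29.2 and 33.4 CPM without and 26.4, 26.0 and 17.3 CPM with PAE, all lower with PAE, at a log2 fold change of −0.40 ± 0.21 that did not pass the test (edgeR adjusted p = 0.169).

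BIRC3 stayed low in this line, with 6.34, 2.97 and 5.02 CPM without PAE and 6.33, 6.25 and 9.19 CPM with PAE. The libraries overlapped, and the log2 fold change was 0.60 ± 0.33 (edgeR adjusted p = 0.193).

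The second comparison set the lines side by side under PAE, again with the untreated SKOV3 libraries in the shared fit but not in the contrast. SKOV3/DDP had more BAK1, BBC3 and MCL1 and less BCL2L1 and BIRC3 than SKOV3. In all, 5 of 10 members were called, 3 higher and 2 lower in SKOV3/DDP, beside 54.4% of all genes tested (27.4% higher and 27.0% lower), so the share of members was close to that of genes in general. The median log2 difference was −0.07 over the members and 0.06 over all genes. The same 5 members kept their calls and directions with the GC trend removed, beside 59.7% of the 15090 genes with GC content (30.5% higher and 29.3% lower). The study's criteria left 2 members, BBC3 and BIRC3, and 24.5% of genes.

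BIRC3 showed the widest gap. SKOV3 with PAE had 64.1, 81.8 and 42.7 CPM, and the 3 SKOV3/DDP libraries with PAE had 6.25 to 9.19 CPM, with no overlap. It was 8.67-fold lower in SKOV3/DDP (log2 difference −3.12 ± 0.34; edgeR adjusted p = 1.17e-06), and −3.27 ± 0.34 with the GC trend removed.

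BAK1 had 15.9, 24.2 and 15.2 CPM in SKOV3 with PAE, below all SKOV3/DDP libraries with PAE (46.7 to 76.3 CPM). It was 3.45-fold higher in SKOV3/DDP (log2 difference 1.79 ± 0.25; edgeR adjusted p = 1.51e-05). The files also list a processed copy, BAK1P1, with 12 to 143 counts per library, so reads of the shared sequence may be split between the loci. BAX, in contrast, had 52.2, 78.3 and 44.8 CPM in SKOV3 with PAE, overlapping SKOV3/DDP with PAE, and its log2 difference was 0.13 ± 0.24, with an interval of −0.38 to 0.65.

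BBC3 had 11.9, 20.2 and 6.47 CPM in SKOV3 with PAE and at least 39.4 CPM in every SKOV3/DDP library with PAE. It was 4.44-fold higher in SKOV3/DDP (log2 difference 2.15 ± 0.37; edgeR adjusted p = 1.33e-04). BCL2L11 had 47.8, 20.3 and 18.8 CPM in SKOV3 with PAE, where replicate 1 was high and overlapped the 36.9 to 67.1 CPM of SKOV3/DDP. Its log2 difference of 0.76 ± 0.32 narrowly missed the threshold (edgeR adjusted p = 0.0560). It was called under DESeq2 (0.78), limma-voom (0.85), no filter on low counts (0.75) and the replicate block (0.82), and without replicate 1 of SKOV3 with PAE (1.31) or replicate 2 of SKOV3/DDP with PAE (0.92). PMAIP1 had 238, 117 and 70.7 CPM in SKOV3 with PAE, highest in replicate 1, and did not pass the test (log2 difference −0.31 ± 0.51). In the same replicate 1, DDIT3 had 199 CPM, against 25.95 and 33.15 CPM in the other two. The part of this replicate's state in the PMAIP1 values was not tested. BID was close in both lines, at 27.5, 27.6 and 29.7 CPM in SKOV3 with PAE, with a log2 difference of −0.28 ± 0.21.

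BCL2L1 had 151, 186 and 116 CPM in SKOV3 with PAE, all above the 57.8 to 70.0 CPM of SKOV3/DDP with PAE. It was 2.44-fold lower in SKOV3/DDP (log2 difference −1.29 ± 0.20; edgeR adjusted p = 6.09e-05). MCL1 had 449, 425 and 300 CPM in SKOV3 with PAE, below all SKOV3/DDP libraries with PAE, and was 1.62-fold higher in SKOV3/DDP (log2 difference 0.70 ± 0.25; edgeR adjusted p = 0.0258). The MCL1 call was lost without replicate 3 of SKOV3 with PAE (0.53) or replicate 2 of SKOV3/DDP with PAE (0.62). BCL2 did not pass the test (log2 difference −0.86 ± 0.58).

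**Figure D2:**
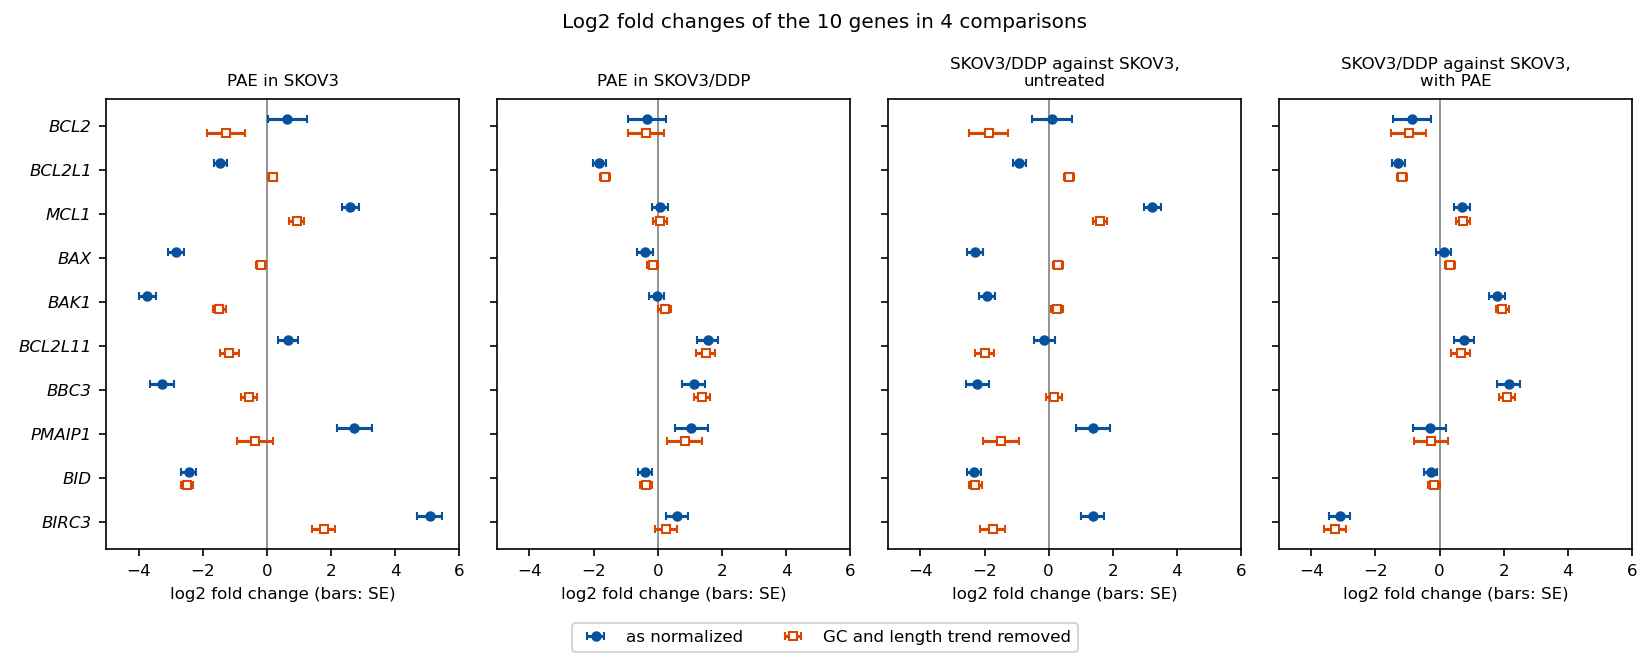
Log2 fold change of each gene in 4 comparisons, with bars of 1 SE; filled circles are from the TMM-normalized fit and open squares from the fit with the GC and length trend removed. The symbols lie close together for PAE in SKOV3/DDP and for the lines with PAE, and apart in both comparisons with untreated SKOV3, except for BID.

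The third comparison asked what PAE changed in the sensitive line, and all of it rests on the 3 untreated SKOV3 libraries. As normalized, MCL1, PMAIP1 and BIRC3 were higher and BCL2L1, BAX, BAK1, BBC3 and BID lower with PAE, which made 8 of 10 members, beside 75.0% of all genes tested (42.5% higher and 32.5% lower). With the GC trend removed, 5 members were called: MCL1 and BIRC3 higher, and BAK1, BID and BCL2L11 lower, beside 50.0% of genes (28.0% higher and 22.0% lower). The study's criteria kept 7 members, all but BCL2L1 of the 8, and 50.1% of genes. Both fits thus agreed on the direction of 4 calls, those of MCL1, BAK1, BID and BIRC3. The median of all genes was 0.48 as normalized, 0.20 under DESeq2 and 1.36 with scaling by library size alone, where 70.3% of called genes were higher instead of 56.7%. The same 8 members kept their directions under that scaling, and BCL2 (edgeR adjusted p = 0.0348) and BCL2L11 (1.53; edgeR adjusted p = 2.60e-04) were also called higher.

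BID, which couples death receptors to mitochondria when cut by caspase 8, had 136, 174 and 151 CPM in untreated SKOV3, all above the PAE libraries. It was 5.43-fold lower with PAE (log2 fold change −2.44 ± 0.22; edgeR adjusted p = 4.06e-08), and the value with the trend removed was nearly the same, −2.49 ± 0.20. The GC content of BID, 49.7%, is close to the median of 49.0% over tested genes. BAK1 had 230, 282 and 220 CPM in untreated SKOV3, far above the PAE libraries, and its log2 fold change was −3.73 ± 0.27 as normalized and −1.48 ± 0.21 with the trend removed (edgeR adjusted p = 6.67e-09 and 3.60e-05).

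MCL1 had 75.4, 52.2 and 64.5 CPM in untreated SKOV3, below every PAE library. Its log2 fold change was 2.61 ± 0.26 as normalized and 0.93 ± 0.23 with the trend removed, where the edgeR adjusted p was 0.00327. BIRC3 had 2.57, 1.28 and 1.70 CPM in untreated SKOV3, from 15 to 29 counts per library, and rose to the levels given above. Its log2 fold change was 5.09 ± 0.39 as normalized and 1.78 ± 0.36 with the trend removed (edgeR adjusted p = 9.88e-09 and 7.92e-04).

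For the other members the result depended on the trend. BAX had 361, 528 and 362 CPM in untreated SKOV3, and its log2 fold change went from −2.83 ± 0.26 to −0.18 ± 0.16, which did not pass the test. BBC3, with 104, 140 and 125 CPM in untreated SKOV3, went from −3.26 ± 0.38 to −0.56 ± 0.25, no longer called, although with the replicate block added it was called (−0.58; edgeR adjusted p = 0.0304). BCL2L1, with 429, 408 and 404 CPM, went from −1.45 ± 0.20 to 0.18 ± 0.15, a change of sign without a call.

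PMAIP1 had 15.9, 22.7 and 25.8 CPM in untreated SKOV3, below all PAE libraries, and went from 2.73 ± 0.55 to −0.37 ± 0.55, no longer called. BCL2L11 had 21.1, 16.5 and 17.3 CPM in untreated SKOV3, overlapping the PAE libraries, and went from 0.66 ± 0.32, not called, to −1.17 ± 0.30, called lower. It was called higher with scaling by library size alone, with no filter on low counts (0.71) and without replicate 2 (0.87) or 3 (0.90) of SKOV3 with PAE. BCL2 was called in neither fit (0.64 ± 0.60 and −1.26 ± 0.59). The GC content of the members spans much of the range of all genes. BBC3, at 69.7%, is above 99.6% of the tested genes, while PMAIP1, at 37.2%, and BIRC3, at 34.8%, are above 5.24% and 1.14%.

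**Figure D3:**
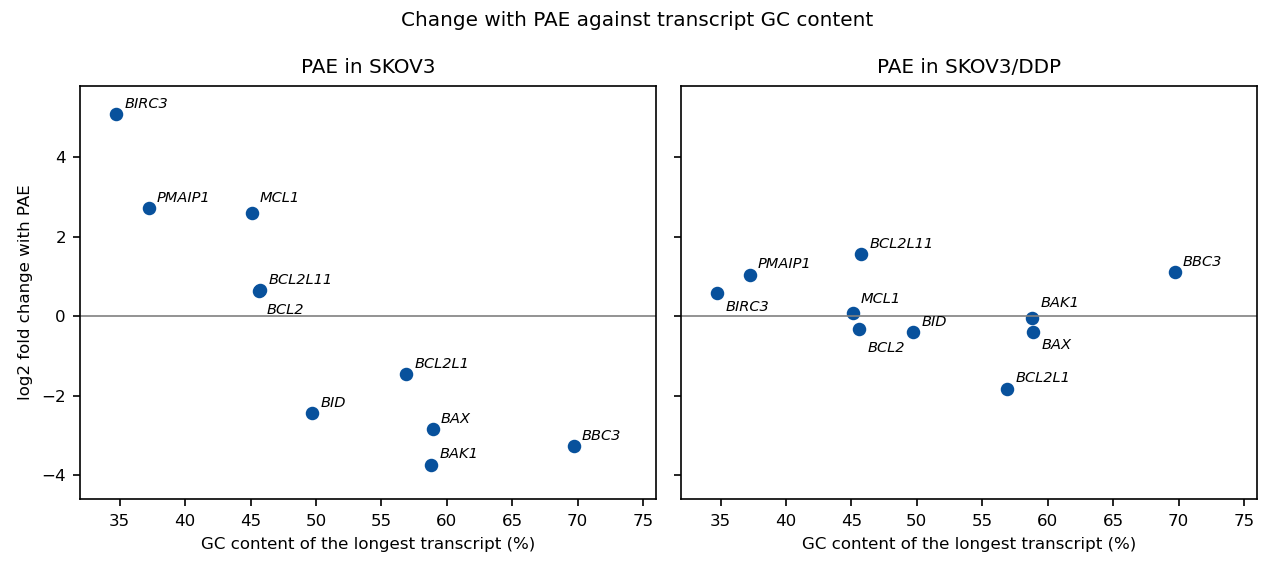
Log2 fold change with PAE against GC content of the longest transcript, for the 10 genes in SKOV3 (left) and SKOV3/DDP (right). In SKOV3 the 3 genes called higher have a GC content of at most 45.1% and the 5 called lower of at least 49.7%; in SKOV3/DDP, BCL2L11 at 45.7% and BBC3 at 69.7% were both called higher.

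The fourth comparison, between the untreated lines, asked how the resistant line differs from the sensitive one without treatment. MCL1 was higher and BID lower in SKOV3/DDP in both fits. As normalized, 8 of 10 members were called, 3 higher and 5 lower, beside 81.5% of all genes tested (45.7% higher and 35.8% lower), and with the trend removed 7 were called, 2 higher and 5 lower, beside 69.7% (36.1% higher and 33.6% lower). The study's criteria left 4 members and 57.2% of genes. MCL1 was 9.38-fold higher as normalized (log2 difference 3.23 ± 0.27; edgeR adjusted p = 1.50e-08) and 3.03-fold higher with the trend removed (1.60 ± 0.23; adjusted p = 1.71e-05). BID was 4.99-fold lower as normalized and 4.89-fold lower with the trend removed (log2 differences −2.32 ± 0.22 and −2.29 ± 0.20; edgeR adjusted p = 5.10e-08 and 9.32e-08).

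Of the other called members, 3 turned around and were called both ways. BCL2L1 was lower as normalized (−0.92 ± 0.20) and higher with the trend removed (0.64 ± 0.15), and with scaling by library size alone it was −0.24 and not called. PMAIP1 went from 1.37 ± 0.53 to −1.49 ± 0.56, and BIRC3 from 1.37 ± 0.36 to −1.75 ± 0.38. The PMAIP1 call as normalized was lost under limma-voom (1.10), with the replicate block (1.21) and without replicate 1 (1.19) or 2 (1.41) of untreated SKOV3, replicate 2 of untreated SKOV3/DDP (0.47) or replicate 3 of SKOV3/DDP with PAE (1.33). BAX (−2.30 ± 0.26), BAK1 (−1.91 ± 0.25) and BBC3 (−2.23 ± 0.36) were lower as normalized, but stood at 0.29 ± 0.16, 0.26 ± 0.20 and 0.16 ± 0.25 with the trend removed and were not called. BCL2L11 (−0.14 ± 0.33) and BCL2 (0.11 ± 0.62) were not called as normalized and were called lower with the trend removed (−2.00 ± 0.31 and −1.87 ± 0.61). With scaling by library size alone the direction of BCL2L11 was also turned, at 0.54, without a call.

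Whether PAE acted differently in the lines was tested by the interaction term, the PAE effect in SKOV3/DDP minus that in SKOV3. As normalized, 6 of 10 members differed, beside 62.7% of all genes tested (25.4% higher and 37.3% lower). With the trend removed 7 did, 4 higher and 3 lower, beside 42.1% (19.3% higher and 22.7% lower). The 2 fits agreed on 5 members: BBC3 (4.38 ± 0.52 and 1.94 ± 0.35), BAK1 (3.70 ± 0.35 and 1.70 ± 0.29), BID (2.04 ± 0.30 and 2.12 ± 0.27), MCL1 (−2.53 ± 0.36 and −0.87 ± 0.32) and BIRC3 (−4.49 ± 0.49 and −1.52 ± 0.48). The edgeR adjusted p of these ranged from 2.88e-07 for BAK1 as normalized to 0.0379 for MCL1 with the trend removed. BAX differed as normalized (2.44 ± 0.35) but not with the trend removed (0.03 ± 0.22). BCL2L1 (−1.82 ± 0.21) and BCL2L11 (2.67 ± 0.42) differed with the trend removed but not as normalized (−0.36 ± 0.28 and 0.90 ± 0.46). BCL2L1 was also called with scaling by library size alone (−1.07), and BCL2L11 under DESeq2 (1.17) and without replicate 1 of SKOV3 with PAE (1.49). PMAIP1 was called in neither fit and changed sign between them (−1.68 ± 0.73 and 1.22 ± 0.78). It was called with scaling by library size alone (−2.32), with no filter on low counts (−1.69), and without replicate 3 of SKOV3 with PAE (−1.97), replicate 1 (−1.95) or replicate 3 (−1.95) of untreated SKOV3/DDP. BCL2 was called in neither fit (−0.97 ± 0.85 and 0.90 ± 0.83).

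Ratios of a survival gene to a death gene within 1 library depend little on its scaling where both genes are well above the 0.5 CPM added before the logarithm, which does not hold for BCL2. In SKOV3/DDP the log2 ratio of BCL2L1 to BAK1 was 1.75 ± 0.30 (SD, n = 3) without PAE and −0.02 ± 0.35 with PAE, a difference of −1.76 with no overlap between libraries. MCL1 to BCL2L11 changed from 5.09 ± 0.46 to 3.73 ± 0.57 and MCL1 to PMAIP1 from 3.66 ± 0.60 to 2.46 ± 0.17, also without overlap. Each reached the smallest p that an exact permutation test of 3 against 3 libraries allows, 0.1 (2-sided), and none can pass 0.05. BCL2 to BAX overlapped (−6.06 ± 0.44 and −5.81 ± 0.46). Between the lines with PAE, BCL2L1 to BAK1 was 3.01 ± 0.17 in SKOV3 and −0.02 ± 0.35 in SKOV3/DDP (exact permutation p = 0.1). MCL1 to PMAIP1 went the other way, from 1.61 ± 0.62 in SKOV3 to 2.46 ± 0.17 in SKOV3/DDP, without overlap (exact permutation p = 0.1). MCL1 to BCL2L11 overlapped at 3.84 ± 0.58 and 3.73 ± 0.57, as did BCL2 to BAX at −5.14 ± 0.34 and −5.81 ± 0.46.

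**Figure D4:**
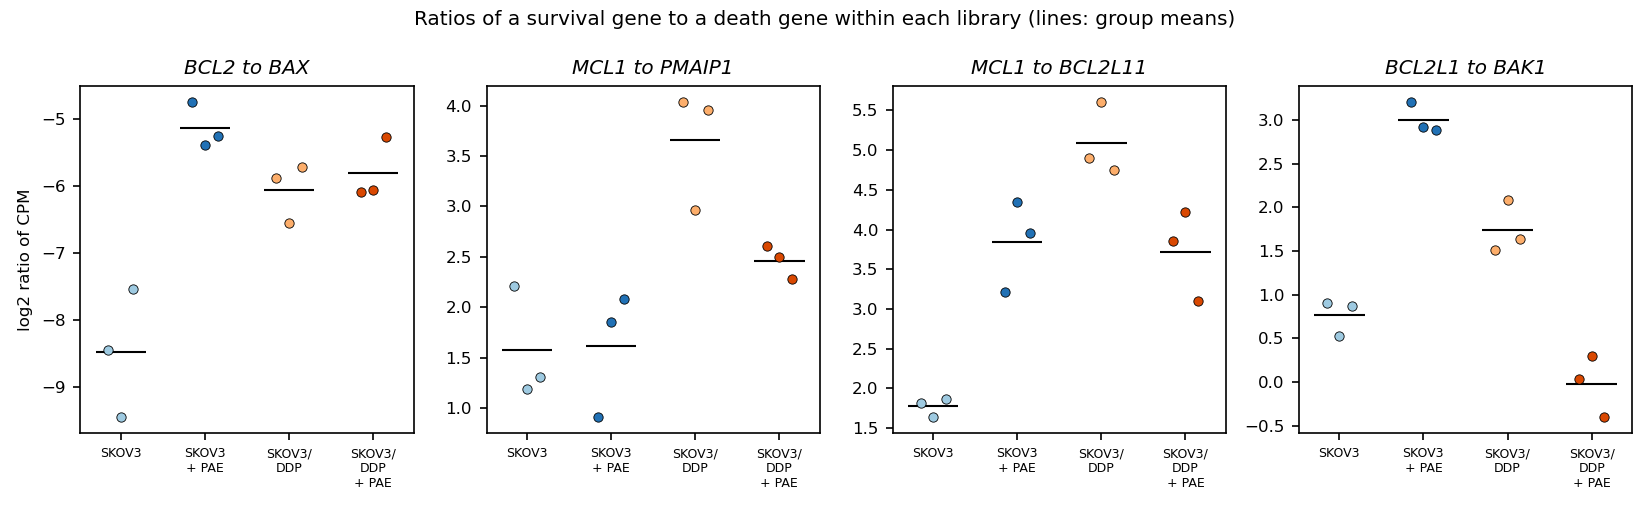
Log2 ratios of CPM of a survival gene to a death gene in each library, with lines at group means (n = 3). BCL2L1 to BAK1 was near 0 in SKOV3/DDP with PAE and near 3 in SKOV3 with PAE; the values of untreated SKOV3 carry the GC trend.

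The other genes of the apoptosis pathway, in lists by role, were described in the same way. With PAE in SKOV3/DDP, where 11.8% of all genes tested were called higher and 14.7% lower, the anti-apoptotic BCL2L2 was lower (log2 fold change −0.84 ± 0.22), as was the effector relative BOK (−1.60 ± 0.20), and BCL2L10, an anti-apoptotic gene with 1 to 30 counts per library in this line, was higher (2.26 ± 0.56). BIRC5, which encodes survivin and is also a mitotic gene, was the 1 of 5 tested inhibitors of apoptosis to be called (−1.49 ± 0.25). Of 9 tested death receptors and adaptors, edgeR called FAS (1.15 ± 0.33), with 5 at an unadjusted p under 0.05, 3 called by DESeq2 and 1 by limma-voom, and 2 called by edgeR with the trend removed. Of 4 other BH3-only genes (BAD, BIK, BMF and HRK), edgeR called 0, with 2 at an unadjusted p under 0.05 and 2 called by each of DESeq2 and limma-voom. Of 4 apoptosome genes and antagonists of the inhibitors, edgeR called 0, with 2 at an unadjusted p under 0.05, 0 called by DESeq2 and 1 by limma-voom.

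Among 7 transcription factors of BH3-only genes, FOXO3, a known activator of BCL2L11, was the 1 called with PAE in SKOV3/DDP (0.97 ± 0.29; edgeR adjusted p = 0.0236), and DESeq2 and limma-voom each called 2. With PAE in SKOV3 this list was 2 higher and 4 lower as normalized, beside 42.5% and 32.5% of all genes tested. With the trend removed it was 3 higher and 0 lower, beside 28.0% and 22.0%. There FOXO3 was 2.60 as normalized and 1.62 with the trend removed, and FOXO1 2.61 and 0.96. BCL2L11 did not rise with them in both fits: it was 0.66, not called, and −1.17, called lower. Of 8 genes of the NF-kB arm around BIRC3, 1 was called with PAE in SKOV3/DDP, TRAF1, lower by 5.69-fold. Its level was low there, under 5 CPM in the higher group. Between the lines with PAE, where 27.4% of all genes tested were higher and 27.0% lower, 5 of these 8 were lower in SKOV3/DDP and the other 3 were not called, with a list median of −1.27 against 0.06 over all genes. TRAF1 (−3.56 ± 0.37), TNFAIP3 (−2.99 ± 0.33) and NFKBIA (−2.50 ± 0.32), all known NF-kB targets, were among them, as were TRAF2 (−1.37 ± 0.23) and RELB (−1.17 ± 0.24). Death receptors and adaptors were 4 higher and 1 lower, led by the TRAIL receptor TNFRSF10B (2.42 ± 0.46) and its decoy TNFRSF10D (1.97 ± 0.56). Of the transcription factors, 3 were higher and 1 lower, with TP73 (3.36 ± 0.50) and E2F1 (−3.22 ± 0.26) at the ends.

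**Figure D5:**
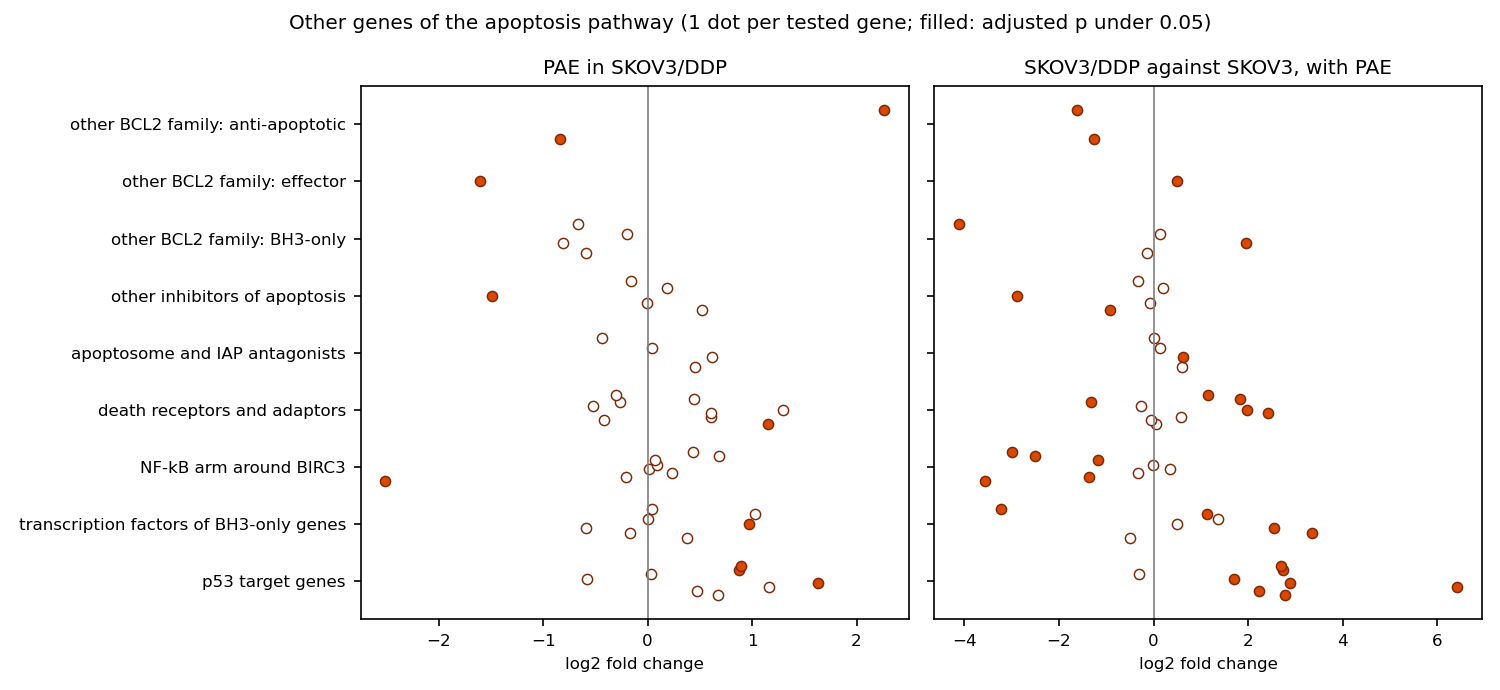
Log2 fold changes of other apoptosis genes by list, for PAE in SKOV3/DDP (left) and for SKOV3/DDP against SKOV3 with PAE (right); each dot is a tested gene, filled where the edgeR adjusted p was under 0.05. Filled dots of the NF-kB list lie below 0 and those of the p53 target list above 0 in the right panel.

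In SKOV3, the calls of the NF-kB list also changed when the trend was removed. With PAE, the NF-kB arm was 2 higher and 6 lower as normalized, beside 42.5% and 32.5% of all genes tested, and 2 higher and 1 lower with the trend removed, beside 28.0% and 22.0%. The largest change as normalized was that of RELB, which was lower (−3.45 as normalized and −0.62 with the trend removed). TNFAIP3, an NF-kB target like BIRC3, was higher in both fits (2.85 as normalized and 2.12 with the trend removed). Between the untreated lines the NF-kB arm was 6 lower as normalized, beside 35.8% of all genes tested, and 6 lower and 1 higher with the trend removed, beside 33.6% and 36.1%, with NFKBIA at −4.43 and −2.90. BCL2L10, DDIT3, TRAF1, TRAF2, NFKBIA and RELB, where named outside the rule for these lists, were named after their values were seen.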

How the data were processed

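RNA of SKOV3 and SKOV3/DDP cells was sequenced in 12 libraries. The files deposited by the authors hold raw counts of reads per gene, 1 file per library, with coordinates on GRCh38. The submitters' processing notes name HISAT2 2.0.5, StringTie 1.3.3b, DESeq2 and edgeR without their roles, and the counting program, strand and annotation release are not given in the sources used here. Replicates were 3 per group, and groups came from the sample labels. The 869 loci without a gene name (0.126% to 0.678% of counts) were left out.

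Counts were analysed in R 4.3.3 with edgeR 4.0.16. Genes passing filterByExpr (17133, all 10 members included) were TMM-normalized and fitted in 1 robust quasi-likelihood model of 4 groups. The 5 contrasts were tested 2-sided, with Benjamini-Hochberg adjustment over all genes tested and calls at 0.05. The standard error is the log2 fold change divided by the root of F, and 95% intervals use the t quantile of the test. CPM are TMM-normalized. GC content is that of the longest GENCODE 29 transcript, matched for 88.1% of the genes tested. The trend on GC content and length was removed with splines of 5 degrees of freedom, as offsets. Log2 ratios used CPM plus 0.5. Motifs were searched on both strands of 35116 RefSeq windows.

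Alternatives were DESeq2 1.42.0, limma-voom (limma 3.58.1), scaling by library size, no filter on low counts, the replicate block, a minimum of 10 counts in all libraries, only the groups compared, the trend removed with and without the block, the study's criteria (unadjusted p under 0.05 and absolute log2 fold change over 2), unnamed loci kept in, and each of 12 libraries left out. Of 18 correlations of deviations between libraries with the same number, 4 were over 0.1 (range −0.319 to 0.184), so replicates were treated as unpaired. No pair of libraries agreed within sampling noise. Only the main edgeR fit was run on simulated data, which had no GC trend, so the trend removal and the other alternatives were not tested in this way. All members are named in each comparison. For pathway genes, a rule took from each list the 2 called genes with the largest change and at least 5 CPM in the higher group. Not every gene under this rule is given, so those named are a selection, and the interaction is given for members only. The members, lists and motifs were chosen with earlier results of these data known. Some genes of the pathway are not reported here.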

Additional observations from a re-analysis of the deposited data

Results flagged for a closer look

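By the interaction term of the 12-library fit, the PAE effect differed between SKOV3/DDP and SKOV3 in 6 of 10 members. This stood beside 62.7% of all genes tested, so the share of members was close to that of genes in general. Values are the effect in SKOV3/DDP minus that in SKOV3 on the log2 scale. The differences were 4.38 for BBC3, 3.70 for BAK1, 2.44 for BAX, 2.04 for BID, −2.53 for MCL1 and −4.49 for BIRC3. With the trend on GC content and length removed they were 1.94, 1.70, 0.03, 2.12, −0.87 and −1.52, and the difference of BAX was no longer called. BID had nearly the same value in both fits. All 6 use the 3 untreated SKOV3 libraries, and PAE and the GC trend cannot be told apart in SKOV3 by its libraries alone, since no untreated SKOV3 library lacked the trend.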

How the results depend on the processing

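For PAE in SKOV3, removal of the GC and length trend left 5 members called and 7548 genes (7103 with the replicate block), and for the difference between the lines 6350 genes (5995 with the replicate block). With the trend removed, and then also with the replicate block, the sign of values called in either fit turned for PAE in SKOV3 in BCL2L1 (0.18 and 0.17), BCL2L11 (−1.17 and −1.22) and PMAIP1 (−0.37 and −0.41). Between the untreated lines it turned in BCL2 (−1.87 and −1.82), BCL2L1 (0.64 and 0.64), BAX (0.29 and 0.30), BAK1 (0.26 and 0.25), BBC3 (0.16 and 0.12), PMAIP1 (−1.49 and −1.66) and BIRC3 (−1.75 and −1.75). Values called in neither fit turned for BCL2 with PAE in SKOV3 (−1.26 and −1.13), BAK1 with PAE in SKOV3/DDP (0.22 and 0.21), and BCL2 (0.90 and 0.81) and PMAIP1 (1.22 and 1.42) in the difference between the lines. The cause was not tested. The study's criteria left 0 members and 1201 genes for PAE in SKOV3/DDP, 4 members between the untreated lines, and 2 members and 4199 genes between the lines with PAE, by the construction of the fold threshold. At least 10 counts in every library left fewer genes to test, with 8978 genes called between the untreated lines and 5477 with PAE. For PAE in SKOV3/DDP, 4545 genes were called with all libraries and 2824 to 5038 with 1 library left out. It was 2824 without replicate 1 and 2912 without replicate 3 of untreated SKOV3/DDP. The replicate block alone gave 4063 genes for this comparison and moved no count by over 1.5 times. It ended the PMAIP1 call between the untreated lines (1.21) and added BCL2L11 between the lines with PAE (0.82), and beside the trend removal it added BBC3 for PAE in SKOV3 (−0.58), and samples with the same number were not paired by the check. Under the other alternatives no call of a member changed sign. Depth limits BCL2, with 3 to 27 counts per library, and BIRC3 in untreated SKOV3, with 15 to 29.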

Other observations

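The p53 target genes, a list apart from the BH3-only members, differed between the lines with PAE. Of 8 tested genes, 7 were higher in SKOV3/DDP, beside 27.4% of all genes tested, with a list median of 2.71 against 0.06 over all genes, and TP53I3 was not called (−0.31 ± 0.22). GDF15, a secreted stress factor, was highest (6.42 ± 0.83), followed by SESN1 (2.88 ± 0.28), CDKN1A, a cell cycle inhibitor (2.79 ± 0.32), and ZMAT3 (2.73 ± 0.28), by edgeR. The same 7 were called with the trend on GC content removed. Between the untreated lines, 5 of the 8 were higher and 3 lower in SKOV3/DDP as normalized, beside 45.7% and 35.8% of all genes tested. With the trend removed, 6 were higher and 1 lower, beside 36.1% and 33.6%, with a list median of 1.41 against 0.09. With PAE in SKOV3/DDP, 3 of the 8 rose, beside 11.8% of all genes tested, with SESN1 (1.63 ± 0.27) ahead of RRM2B (0.89 ± 0.23) and ZMAT3 (0.87 ± 0.26), and a list median of 0.77 against 0.00. CDKN1A and ZMAT3 were named after their values were seen.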
